A study of Mus musculus with 24 samples.

Results

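Tnf, Tnfsf10, Tnfrsf1a, Tnfrsf1b, Tnfrsf11b, Cd40, Traf1, Traf2 and Birc3 are ligands, receptors and adaptors of tumor necrosis factor (TNF) signalling. These 9 genes were chosen by name from the 45706 gene entries of the deposited count tables, with earlier results of these data known. Their counts beside the shares of all genes are therefore a description only. All 9 were among the 15221 genes with enough reads to be tested. Their mRNA was measured in mouse embryonic fibroblasts (MEFs), primary connective tissue cells, of a study that asks which functions of the glucocorticoid receptor (GR) need its direct contact with DNA.

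Mutant GR Zn/Zn fibroblasts and GR wt/wt fibroblasts were each given Dex + LPS, LPS, Dex or vehicle, with 3 libraries in each of the 8 groups and 24 libraries in all. All came from male C57BL/6 embryos at day 13.5 with head and internal organs taken off, and were grown for 7 days. The cells spent 16 h with 1 uM dexamethasone (Dex, a synthetic glucocorticoid) in ethanol or with ethanol alone, so the vehicle and the LPS groups both carried ethanol. Lipopolysaccharide (LPS, a bacterial cell wall component that activates TLR4) was added for 6 h at a labelled 100 ng per ul, and the labels do not say whether the 6 h lay within the 16 h. Nor do the labels name the embryos behind each library, so the spread behind the p-values is that between libraries and may be technical.

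TNF is a cytokine made as a membrane protein and shed by a protease. It binds TNF receptor 1, found on most cells, and TNF receptor 2. TRAF and cIAP adaptors gather at the receptors and pass the signal to NF-kB and MAP kinases, and a failure of this platform lets the same receptor start cell death. Glucocorticoids lower many NF-kB target genes, and the receptor can act by binding DNA itself or through other DNA-bound factors. The authors' deposited comparisons of GR Zn/Zn fibroblasts carry the name C437G for this receptor allele, and the labels add no description of it.

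The stretch around the transcription start of each gene is shown because the genes below differ in how far LPS and Dex moved them. RefSeq windows on GRCm38.p6, from 250 bases before to 50 bases after the start, were at hand for 7 of the 9 genes, and the 4 of these with a match to a searched motif are printed on the gene's own strand. Capitals mark TATAAA in Tnf (chr17:35201958-35202257, minus strand) and TTTCNNTTT, a short form of the interferon-stimulated element, in Tnfsf10 (chr3:27316827-27317126, plus strand), Tnfrsf1b (chr4:145246821-145247120, minus strand) and Birc3 (chr9:7873121-7873420, minus strand).
Tnf: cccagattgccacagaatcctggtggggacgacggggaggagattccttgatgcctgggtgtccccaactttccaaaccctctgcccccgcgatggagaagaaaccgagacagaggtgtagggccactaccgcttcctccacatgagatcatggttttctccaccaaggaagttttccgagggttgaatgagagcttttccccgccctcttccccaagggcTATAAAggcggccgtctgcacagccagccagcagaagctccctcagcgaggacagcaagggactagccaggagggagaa
Tnfsf10: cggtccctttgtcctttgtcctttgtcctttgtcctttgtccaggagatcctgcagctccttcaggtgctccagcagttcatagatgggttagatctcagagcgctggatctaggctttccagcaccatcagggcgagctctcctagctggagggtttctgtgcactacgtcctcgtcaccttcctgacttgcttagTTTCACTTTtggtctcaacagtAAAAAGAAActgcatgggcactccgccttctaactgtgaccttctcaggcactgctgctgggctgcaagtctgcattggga
Tnfrsf1b: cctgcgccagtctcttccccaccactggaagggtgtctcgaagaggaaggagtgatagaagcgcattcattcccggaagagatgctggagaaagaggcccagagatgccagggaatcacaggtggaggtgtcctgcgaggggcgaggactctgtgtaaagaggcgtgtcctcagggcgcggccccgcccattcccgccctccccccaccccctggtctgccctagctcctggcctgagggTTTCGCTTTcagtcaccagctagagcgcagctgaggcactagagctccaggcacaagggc
Birc3: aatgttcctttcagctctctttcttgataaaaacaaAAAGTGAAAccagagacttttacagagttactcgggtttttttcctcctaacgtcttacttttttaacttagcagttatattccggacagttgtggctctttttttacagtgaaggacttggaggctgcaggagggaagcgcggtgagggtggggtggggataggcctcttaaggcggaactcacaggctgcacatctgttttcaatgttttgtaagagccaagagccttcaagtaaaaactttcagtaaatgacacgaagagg

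The TATAAA of Tnf began 29 bases before the start. Tnfsf10 held 2 matches to TTTCNNTTT, at 53 bases before the start and, on the opposite strand, at 31 bases. Tnfrsf1b held it at 10 bases before the start, and Birc3, on the opposite strand, at 214 bases. Over 32851 RefSeq windows of the same length, searched on both strands, TATAAA was found in 13.6% and TTTCNNTTT in 10.6%. The NF-kB kappa B consensus (in 6.93% of all windows), the glucocorticoid response element core ACANNNTGT (6.85%) and the AP-1 motif TGANTCA (7.81%) had no match in the 7 windows, which says only that these letters are not there.

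LPS raised 8 of the 9 genes in GR Zn/Zn fibroblasts and 7 of the 9 in GR wt/wt fibroblasts, where it lowered Tnfrsf11b. Calls were made in edgeR's quasi-likelihood test of LPS against vehicle, at a p below 0.05 after Benjamini-Hochberg adjustment. By the same rule 36.7% of the 15221 tested genes were called in GR Zn/Zn and 26.4% in GR wt/wt fibroblasts, in either direction. The median log2 change of the 9 genes was 2.41 in GR Zn/Zn and 2.06 in GR wt/wt fibroblasts, with the medians of all tested genes at 0.00 and -0.01.

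Dex on top of LPS, set against LPS alone, lowered none of the 9 genes in GR Zn/Zn fibroblasts and 7 of the 9 in GR wt/wt fibroblasts. Called genes in either direction made up 0.00657% of all tested genes in GR Zn/Zn and 21.0% in GR wt/wt fibroblasts. Of all 15221 tested genes, 1607 were lower and 1591 higher in GR wt/wt fibroblasts, and the 1 called in GR Zn/Zn was higher. For the 9 genes, the count of 0 in GR Zn/Zn stayed 0 at an unadjusted p below 0.05 and with DESeq2. In GR wt/wt fibroblasts the number of the 9 called, in either direction, ranged from 5 to 8 over alternative fits. In GR wt/wt fibroblasts the median log2 change of the 9 genes was -0.78, beside 0.01 for all tested genes, and in GR Zn/Zn it was 0.01, beside -0.01. The test of the difference between the genotypes called 6 of the 9 genes, beside 10.4% of all tested genes.

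Dex alone moved fewer of them. None of the 9 was called in GR Zn/Zn fibroblasts, where edgeR called 0% of all genes (1109 had an unadjusted p below 0.05, and DESeq2 called 3), and among the 9 Traf2 had an unadjusted p below 0.05. In GR wt/wt fibroblasts 1 gene was higher and 2 were lower, beside 13.2% of all tested genes called. The Dex response differed between the genotypes for 2 of the 9 genes (6.99% of all tested genes), and the LPS response for 3 of the 9 (0.539%). The Dex response of GR wt/wt fibroblasts with LPS did not pass the test against that without LPS for any of the 9 in edgeR, where 2 had an unadjusted p below 0.05, DESeq2 called 1, and edgeR called 1.56% of all tested genes.

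**Figure D1:**
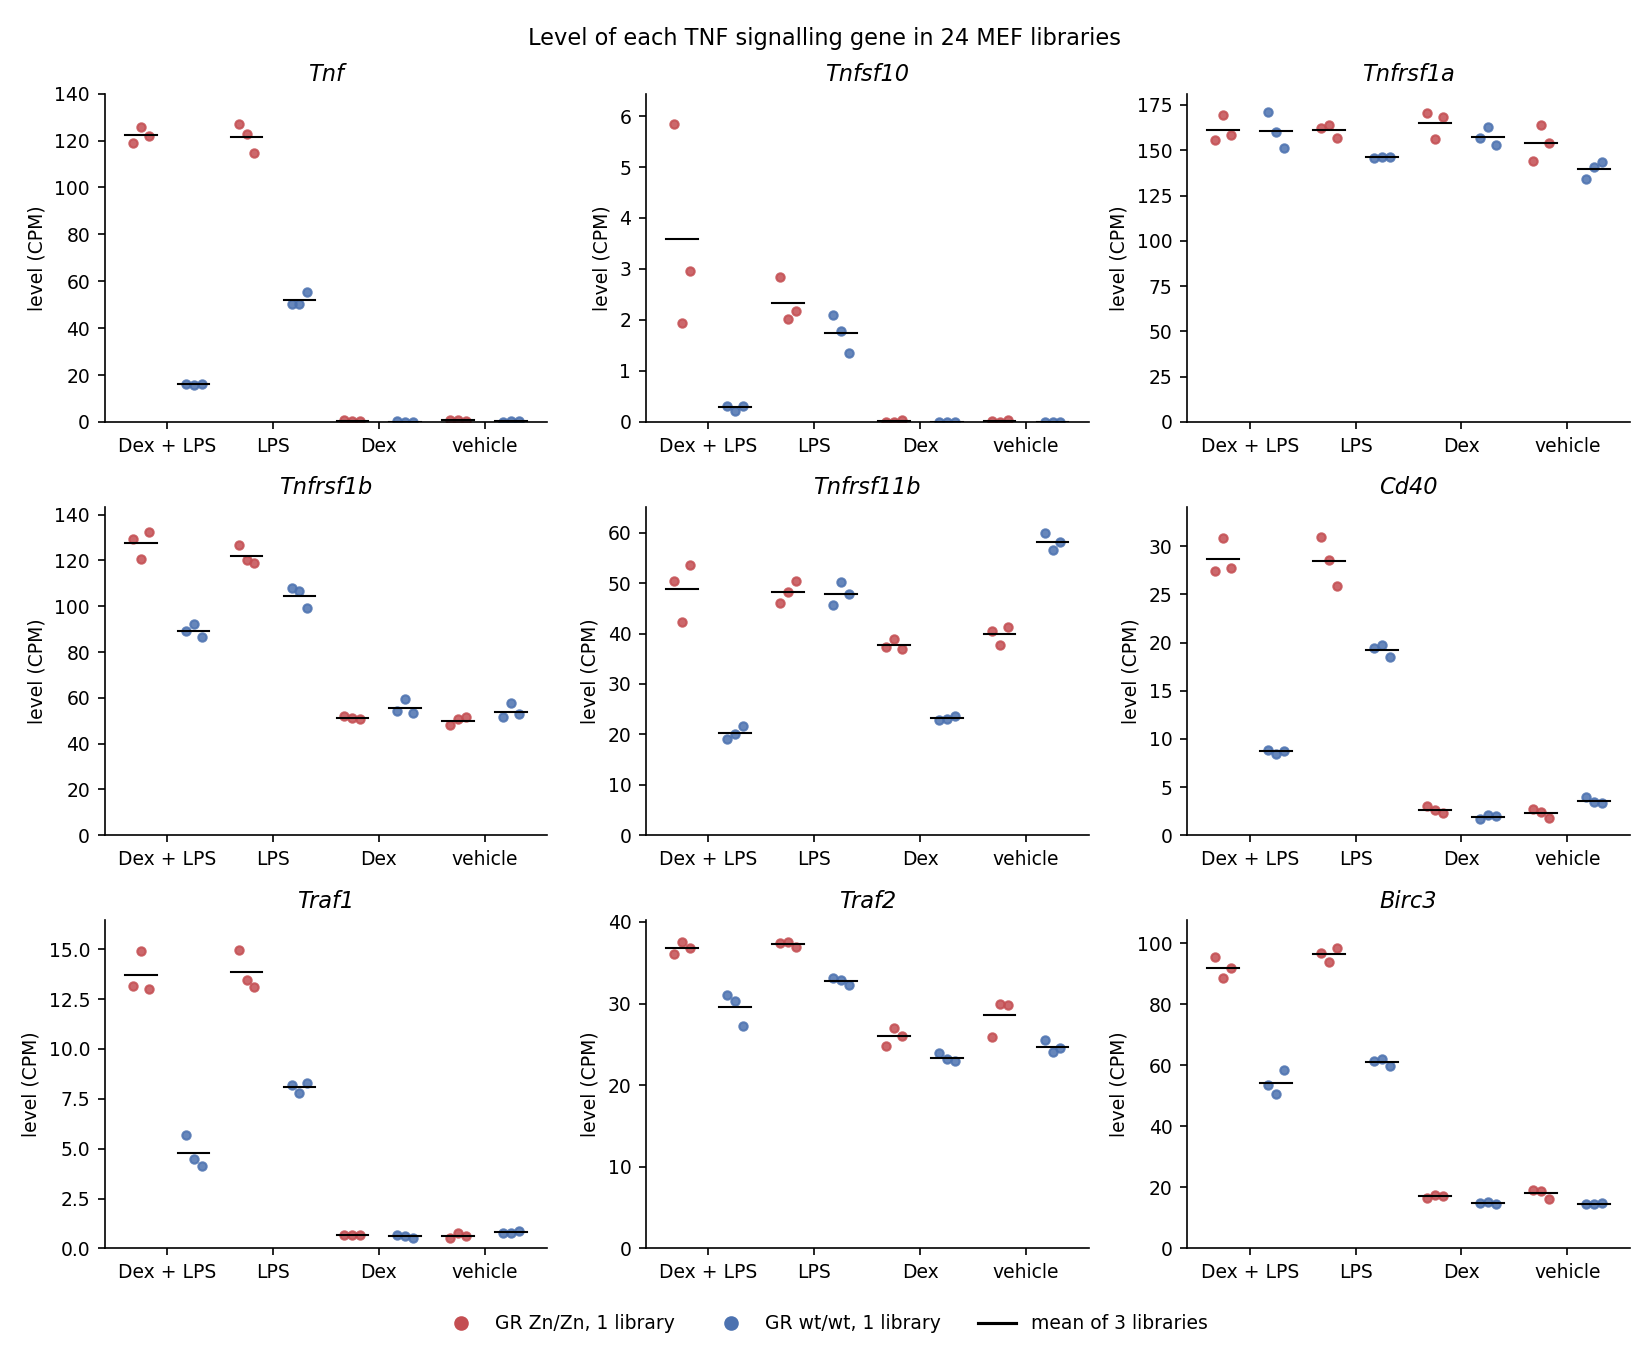
Level in CPM (reads per 1000000 counted reads, y axis) of each of the 9 genes in each of the 24 libraries, by treatment (x axis), with GR Zn/Zn in red left of GR wt/wt in blue and the mean of 3 libraries as a black line. Tnf reached 115 to 127 CPM in the LPS libraries of GR Zn/Zn and 50.4 to 55.4 CPM in those of GR wt/wt fibroblasts, while Tnfrsf1a lay between 134 and 171 CPM throughout.

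The libraries fell into 21 with 18.9 to 25.5 M counted reads (M for 1000000) and 3 with 43.9 to 58.0 M, which were replicate 1 of GR Zn/Zn with vehicle, replicate 2 of GR Zn/Zn with LPS and replicate 3 of GR wt/wt with Dex + LPS. In GR Zn/Zn replicate 2 and in GR wt/wt replicate 1 with Dex + LPS, long genes counted low against the rest of the group, with rank correlations of -0.49 and -0.48 between a gene's deviation and its length, and these 5 libraries were left out in an alternative fit. At these depths 3 reads in a library equal 0.0518 to 0.159 CPM. The fibroblast markers summed to 25734 to 34992 CPM and liver markers to 0.464 to 200 CPM. The receptor gene Nr3c1 stood at 86.5 ± 1.11 CPM in GR Zn/Zn and 89.7 ± 2.94 CPM in GR wt/wt fibroblasts with vehicle (SD, n = 3 each). A count over the whole gene does not show the mutated stretch and so does not check the genotype labels.

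Tnf (ENSMUSG00000024401), the ligand that gives the pathway its name, lies on chromosome 17 at 35199381 to 35202007, minus strand, in the mm10 build. With LPS, GR Zn/Zn libraries held 127, 123 and 115 CPM and GR wt/wt libraries 50.4, 50.5 and 55.4 CPM. With vehicle they held 0.653, 0.666 and 0.549 CPM in GR Zn/Zn and 0.142, 0.218 and 0.248 CPM in GR wt/wt fibroblasts, the last from 14 reads in 3 libraries. Every LPS library lay far above every vehicle library of its genotype, and every GR Zn/Zn library above every GR wt/wt library of the same treatment.

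The mean level of Tnf with LPS was 195 times that with vehicle in GR Zn/Zn and 257 times in GR wt/wt fibroblasts, as log2 changes of 7.58 ± 0.13 and 7.95 ± 0.16 (SE; adjusted p = 1.21e-21 and 4.27e-20). The difference of these inductions, GR Zn/Zn minus GR wt/wt, was -0.37 ± 0.34 on the log2 scale and did not pass (adjusted p = 0.882). This SE is larger than the SEs of both inductions would give together. Those SEs rest on 64 vehicle reads in GR Zn/Zn and 14 in GR wt/wt libraries and are too small. Counting error on so few reads is by itself larger than those SEs, and larger than the SE of the difference. In bulk RNA, fewer cells of a type and less RNA per cell cannot be told apart, here and in all results that follow. The level itself was higher in GR Zn/Zn fibroblasts, by 1.22 ± 0.08 with LPS (adjusted p = 1.23e-10) and by 1.59 ± 0.33 with vehicle (adjusted p = 0.000951) on the log2 scale.

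The response of Tnf to Dex under LPS differed between the genotypes. Libraries with Dex + LPS held 119, 126 and 122 CPM in GR Zn/Zn and 16.3, 15.9 and 16.2 CPM in GR wt/wt fibroblasts. Those of GR Zn/Zn overlapped its LPS libraries, and those of GR wt/wt lay below all of its LPS libraries, at 31.0% of their mean. The log2 change was 0.01 ± 0.08 in GR Zn/Zn (adjusted p = 1.00, 95% interval -0.15 to 0.16) and -1.69 ± 0.09 in GR wt/wt fibroblasts (adjusted p = 1.57e-12). The difference between the genotypes was 1.69 ± 0.12 (adjusted p = 5.44e-10).

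Without LPS, Tnf under Dex stood at 0.699, 0.422 and 0.601 CPM in GR Zn/Zn and at 0.241, 0.0826 and 0 CPM in GR wt/wt fibroblasts. Both groups overlapped their vehicle libraries. The log2 change was -0.14 in GR Zn/Zn (95% interval -0.63 to 0.36, edgeR adjusted p = 0.901) and -0.79 in GR wt/wt fibroblasts (-1.80 to 0.21, adjusted p = 0.49). With so few reads both intervals are narrower than counting error alone would make them. Neither change passed, with 40 reads in GR Zn/Zn and 8 in GR wt/wt libraries with Dex. The size of change that could have been detected was not computed. Even with Dex + LPS, the 3 GR wt/wt libraries remained far above the vehicle level. Tnf's order of mean levels put Dex + LPS and LPS in GR Zn/Zn at the top without a gap between them, then LPS and Dex + LPS in GR wt/wt, each apart from the next.

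**Figure D2:**
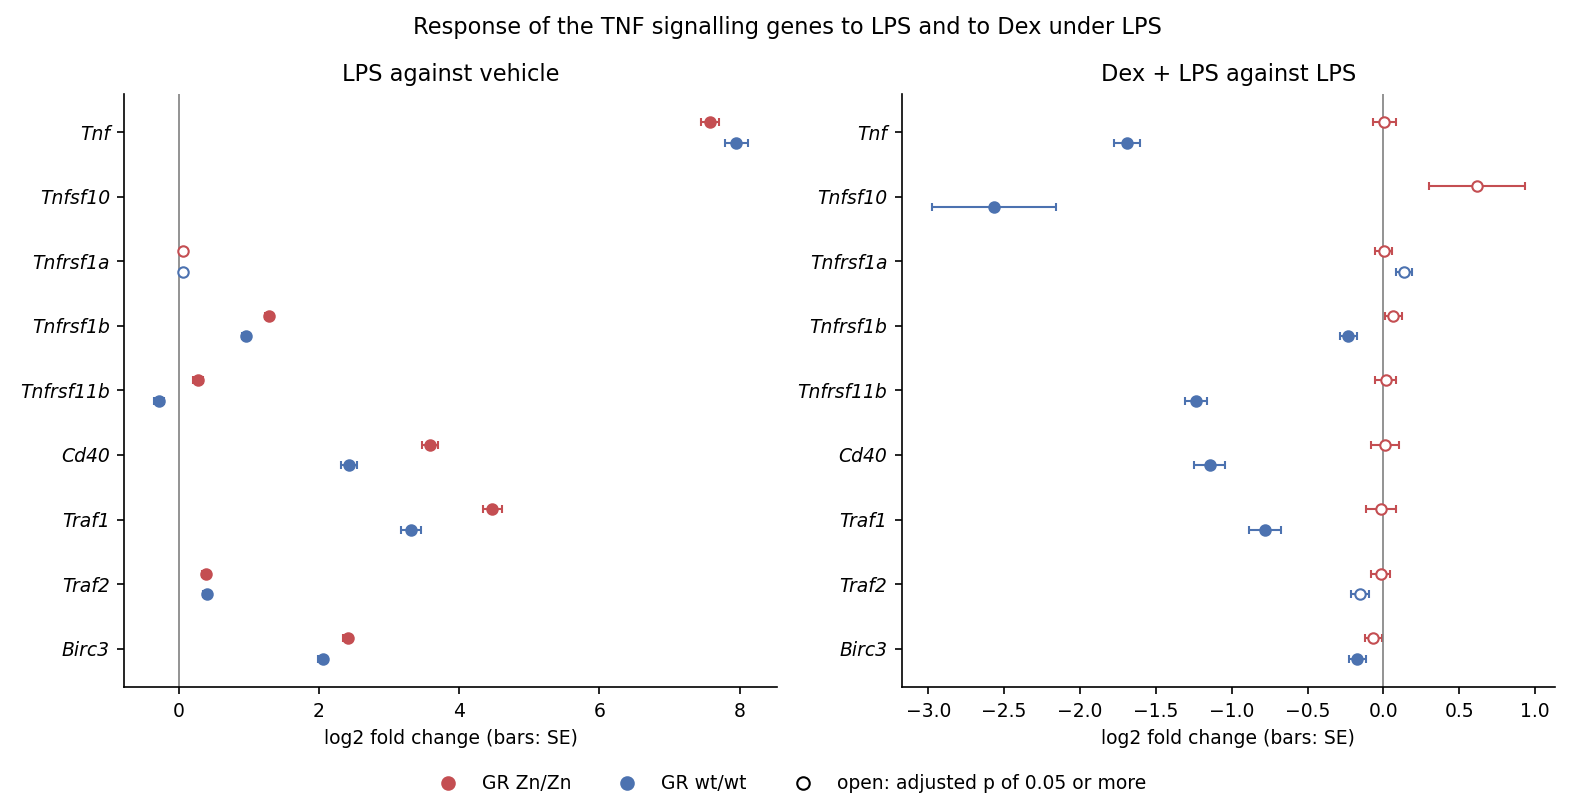
Log2 fold change with its SE (x axis) of each of the 9 genes (y axis) for LPS against vehicle, left, and Dex + LPS against LPS, right, with GR Zn/Zn in red above GR wt/wt in blue and open points for an adjusted p of 0.05 or more. Tnfsf10 has no point on the left, since a group at 0 to 2 reads gives no usable fitted value, and on the right Tnf sits at 0.01 in GR Zn/Zn and -1.69 in GR wt/wt fibroblasts.

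Tnf's neighbours on chromosome 17 are Lta, which encodes lymphotoxin alpha, and Ltb, which encodes lymphotoxin beta, both ligands of the same superfamily. Lta (35203165 to 35205351) had at most 13 reads and Ltb (35194439 to 35196320) at most 3 reads in any group of 3 libraries, too few to be tested. Per kilobase of exon, Tnf averaged 74.2 CPM per kb with LPS in GR Zn/Zn and 31.8 CPM per kb in GR wt/wt fibroblasts, on the level scale. Its receptor gene Tnfrsf1a averaged 62.1 CPM per kb in GR Zn/Zn and 56.4 CPM per kb in GR wt/wt fibroblasts with LPS.

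Macrophages are a strong source of TNF, so their markers were read beside the genotype difference of Tnf. Of 14 macrophage and leukocyte markers 11 were tested, of which 10 were higher in GR Zn/Zn than in GR wt/wt fibroblasts with LPS and 9 with vehicle. Of all tested genes, 24.5% were called with LPS and 18.8% with vehicle. The summed level of the markers with LPS was 171 to 182 CPM in GR Zn/Zn and 84.1 to 85 CPM in GR wt/wt libraries. With vehicle it was 206 to 217 CPM in GR Zn/Zn and 93.4 to 96.1 CPM in GR wt/wt libraries. The T cell marker Cd3e was at 0 in all 24 libraries. The part of these cells in the genotype differences was not tested.

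For Dex under LPS the same markers moved less. In GR Zn/Zn fibroblasts they summed to 175 to 198 CPM with Dex + LPS and 171 to 182 CPM with LPS, and in GR wt/wt fibroblasts to 81.7 to 87.4 CPM with Dex + LPS and 84.1 to 85 CPM with LPS. None of the 11 passed the edgeR test in either genotype. In GR wt/wt fibroblasts Dex under LPS also lowered 4 of 10 fibroblast markers and raised 1, and lowered 2 of 3 tested epithelial markers, whose sum was 7.53 to 9.43 CPM with Dex + LPS and 14.8 to 16.3 CPM with LPS. In that comparison 21.0% of all tested genes were called.

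Tnfsf10 (ENSMUSG00000039304) encodes TRAIL, a ligand that can start cell death, and lies on chromosome 3 at 27317028 to 27342427, plus strand. It was near silent without LPS, with 2 reads in GR Zn/Zn and none in GR wt/wt libraries with vehicle, and 1 read in GR Zn/Zn and none in GR wt/wt libraries with Dex. LPS libraries held 2.84, 2.01 and 2.18 CPM in GR Zn/Zn and 2.10, 1.79 and 1.36 CPM in GR wt/wt fibroblasts, so that the genotypes overlapped (log2 difference 0.41 ± 0.33, adjusted p = 0.409).

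Set against vehicle, the pooled level of Tnfsf10 with LPS was 116 times higher in GR Zn/Zn, with an exact 95% counting interval of 31.6 to 963, and at least 40.3-fold higher in GR wt/wt fibroblasts, taking 3 reads over the group as the floor. Both were called (adjusted p = 6.48e-08 and 6.08e-07). Dex + LPS libraries held 5.84, 1.94 and 2.96 CPM in GR Zn/Zn and 0.311, 0.224 and 0.319 CPM in GR wt/wt fibroblasts. In GR Zn/Zn 1 library stood apart upward and the group overlapped that of LPS alone, while all 3 GR wt/wt libraries lay below every LPS library.

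The log2 change of Tnfsf10 under Dex + LPS was 0.62 ± 0.32 in GR Zn/Zn (adjusted p = 0.86) and -2.57 ± 0.41 in GR wt/wt fibroblasts (adjusted p = 0.000127), which left 16.3% of the LPS mean. The genotypes differed by 3.19 ± 0.52 (adjusted p = 0.000296). These values rest on 30 reads in the GR wt/wt Dex + LPS libraries and 113 in the LPS libraries.

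Tnfrsf1a (ENSMUSG00000030341), TNF receptor 1 with its death domain, lies on chromosome 6 at 125349362 to 125362484, plus strand. It was the steadiest of the 9, between 134 and 171 CPM in all 24 libraries. With LPS it held 162, 164 and 157 CPM in GR Zn/Zn and 146, 146 and 146 CPM in GR wt/wt fibroblasts, a log2 difference that missed the threshold (0.14 ± 0.05, adjusted p = 0.0628). With vehicle it held 144, 164 and 154 CPM in GR Zn/Zn and 134, 141 and 143 CPM in GR wt/wt fibroblasts. Its LPS change was 0.07 ± 0.05 in either genotype (adjusted p = 0.372 in GR Zn/Zn and 0.414 in GR wt/wt).

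Dex alone left Tnfrsf1a at 170, 156 and 168 CPM in GR Zn/Zn and at 157, 163 and 153 CPM in GR wt/wt fibroblasts, where they lay above all vehicle libraries. The GR wt/wt change of 0.17 ± 0.05 passed (adjusted p = 0.034). It lost its call when either replicate 1 or replicate 2 of the vehicle or of the Dex group was left out, with adjusted p up to 0.153 over all alternatives. In GR Zn/Zn the change was 0.10 ± 0.05 (adjusted p = 0.675), and the difference of the Dex responses, -0.07 ± 0.08, did not pass (adjusted p = 0.75). Dex + LPS libraries held 156, 169 and 158 CPM in GR Zn/Zn and 171, 160 and 151 CPM in GR wt/wt fibroblasts, changes of 0.00 ± 0.05 (adjusted p = 1.00) and 0.14 ± 0.05 (adjusted p = 0.0796) against LPS that did not pass.

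Tnfrsf1b (ENSMUSG00000028599), TNF receptor 2, which binds TRAF2 and lacks a death domain, lies on chromosome 4 at 145213463 to 145246870, minus strand. LPS libraries held 127, 120 and 119 CPM in GR Zn/Zn and 108, 107 and 99.1 CPM in GR wt/wt fibroblasts. Vehicle libraries held 47.9, 50.8 and 51.4 CPM in GR Zn/Zn and 51.5, 57.6 and 52.8 CPM in GR wt/wt fibroblasts. LPS raised it 2.44 times in GR Zn/Zn and 1.94 times in GR wt/wt fibroblasts (log2 1.29 ± 0.06 and 0.96 ± 0.06, adjusted p = 1.47e-14 and 5.66e-12).

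The difference between those LPS responses of Tnfrsf1b was 0.33 ± 0.08 and missed the threshold in edgeR (adjusted p = 0.0583). DESeq2 called it (adjusted p = 0.0102), as did edgeR on only the groups compared (adjusted p = 0.0442) and without the 5 libraries that stood apart (adjusted p = 0.00572). With Dex + LPS the libraries held 129, 121 and 132 CPM in GR Zn/Zn, overlapping LPS, and 89.1, 92.0 and 86.4 CPM in GR wt/wt fibroblasts, all below LPS. The change was 0.06 ± 0.05 in GR Zn/Zn (adjusted p = 0.959) and -0.23 ± 0.05 in GR wt/wt fibroblasts (adjusted p = 0.0033), a drop to 85.2% of the LPS mean. The genotypes differed by 0.30 ± 0.08 (adjusted p = 0.0127). In a fit of only the libraries compared, the GR wt/wt call was lost (adjusted p = 0.0853).

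Dex alone left Tnfrsf1b near its vehicle level, at 52.1, 51.1 and 50.9 CPM in GR Zn/Zn and 54.3, 59.6 and 53.3 CPM in GR wt/wt fibroblasts. Both groups overlapped their vehicle libraries, and neither change passed (0.04 ± 0.06 in GR Zn/Zn, adjusted p = 0.859, and 0.05 ± 0.06 in GR wt/wt fibroblasts, adjusted p = 0.724).

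Tnfrsf11b (ENSMUSG00000063727) encodes osteoprotegerin, a secreted decoy receptor that keeps the ligands RANKL and TRAIL from their receptors, and lies on chromosome 15 at 54250619 to 54278484, minus strand. With LPS the genotypes overlapped, at 46.1, 48.2 and 50.5 CPM in GR Zn/Zn and 45.6, 50.2 and 47.9 CPM in GR wt/wt fibroblasts. With vehicle they did not, at 40.5, 37.8 and 41.3 CPM in GR Zn/Zn and 60.0, 56.7 and 58.1 CPM in GR wt/wt fibroblasts. Tnfrsf11b was thus lower in GR Zn/Zn with vehicle (-0.55 ± 0.07, adjusted p = 2.85e-06) and not called different with LPS (0.01 ± 0.07, adjusted p = 0.947).

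LPS moved Tnfrsf11b in opposite directions, by 0.27 ± 0.07 in GR Zn/Zn (adjusted p = 0.00301) and -0.28 ± 0.07 in GR wt/wt fibroblasts (adjusted p = 0.00353). The difference was 0.56 ± 0.10 (adjusted p = 0.00932). Scaling by library totals without TMM took the call in GR Zn/Zn away (adjusted p = 0.078) and kept its sign.

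Dex lowered Tnfrsf11b with and without LPS in GR wt/wt fibroblasts. Dex libraries held 37.4, 39.0 and 37.0 CPM in GR Zn/Zn and 22.8, 23.1 and 23.7 CPM in GR wt/wt fibroblasts, and Dex + LPS libraries 50.5, 42.3 and 53.6 CPM in GR Zn/Zn and 19.2, 20.1 and 21.6 CPM in GR wt/wt fibroblasts. The GR wt/wt libraries lay below all of their controls, and the GR Zn/Zn libraries overlapped theirs. Dex alone changed it by -0.08 ± 0.07 in GR Zn/Zn (adjusted p = 0.774) and by -1.33 ± 0.07 in GR wt/wt fibroblasts (adjusted p = 5.23e-12). Dex under LPS changed it by 0.02 ± 0.07 in GR Zn/Zn (adjusted p = 0.995) and by -1.24 ± 0.07 in GR wt/wt fibroblasts (adjusted p = 1.14e-11). The genotype difference was 1.25 ± 0.10 in both settings (adjusted p = 8.68e-09 without and 4.96e-09 with LPS).

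Cd40 (ENSMUSG00000017652), a receptor that recruits TRAF proteins and answers the T cell ligand CD40L, lies on chromosome 2 at 165055627 to 165072948, plus strand. LPS libraries held 31.0, 28.6 and 25.9 CPM in GR Zn/Zn and 19.5, 19.8 and 18.5 CPM in GR wt/wt fibroblasts. Vehicle libraries held 2.75, 2.38 and 1.77 CPM in GR Zn/Zn and 3.94, 3.45 and 3.35 CPM in GR wt/wt fibroblasts. The genotypes were apart in both treatments and in opposite order, with Cd40 higher in GR Zn/Zn under LPS (0.57 ± 0.10, adjusted p = 9.84e-05) and lower under vehicle (-0.58 ± 0.14, adjusted p = 0.00336).

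The induction of Cd40 by LPS was 12.4 times in GR Zn/Zn and 5.38 times in GR wt/wt fibroblasts (log2 3.58 ± 0.12 and 2.43 ± 0.12, adjusted p = 5.86e-17 and 1.18e-13). The genotypes differed by 1.15 ± 0.17 (adjusted p = 0.00125), and by 1.35 ± 0.19 without the 5 libraries that stood apart.

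Under Dex + LPS, Cd40 held 27.5, 30.8 and 27.8 CPM in GR Zn/Zn, within the spread of LPS alone, and 8.89, 8.42 and 8.77 CPM in GR wt/wt fibroblasts, below all LPS libraries. The change was 0.01 ± 0.09 in GR Zn/Zn (adjusted p = 1.00) and -1.15 ± 0.10 in GR wt/wt fibroblasts (adjusted p = 1.15e-08), with a difference of 1.15 ± 0.14 (adjusted p = 2.22e-06). Without LPS, Dex libraries held 3.06, 2.61 and 2.32 CPM in GR Zn/Zn and 1.65, 2.06 and 2.0 CPM in GR wt/wt fibroblasts.

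Dex alone thus lowered Cd40 in GR wt/wt fibroblasts to 53.2% of the vehicle mean (-0.91 ± 0.15, adjusted p = 0.00012), against a change of 0.16 ± 0.14 in GR Zn/Zn (adjusted p = 0.817). The difference was 1.07 ± 0.21 (adjusted p = 0.00152). In the same GR wt/wt comparison 4 of the 11 tested macrophage and leukocyte markers were lower, beside 13.2% of all tested genes called. The markers summed to 71.1 to 81.1 CPM with Dex and 93.4 to 96.1 CPM with vehicle. Their part in the fall of Cd40 was not tested.

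**Figure D3:**
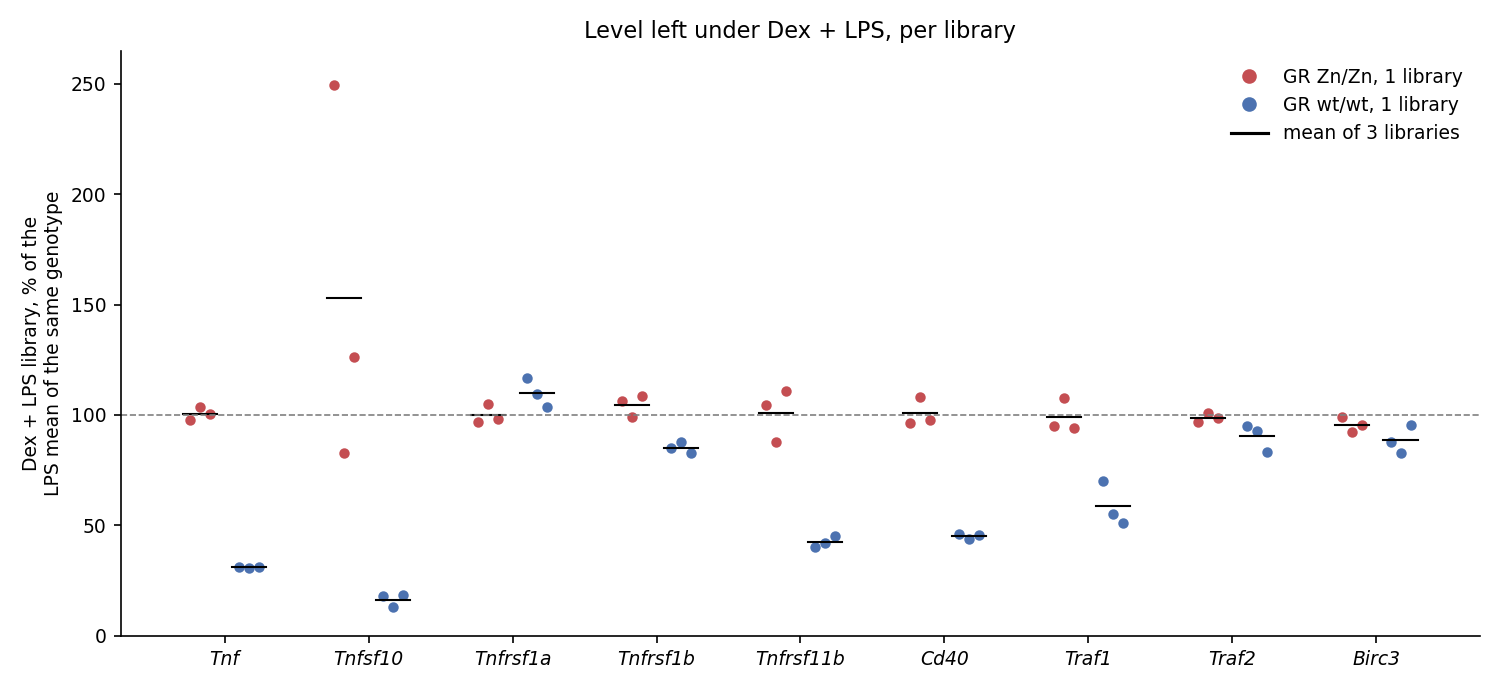
Level of each gene (x axis) in each Dex + LPS library as a percent of the mean of the 3 LPS libraries of the same genotype (y axis), with GR Zn/Zn in red left of GR wt/wt in blue, black lines for the mean of 3 libraries and a dashed line at 100. Tnf lay at 97.7 to 103% in GR Zn/Zn and 30.6 to 31.3% in GR wt/wt libraries, and Tnfsf10 spread from 82.8 to 250% in GR Zn/Zn.

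Traf1 (ENSMUSG00000026875), an adaptor without a RING domain that joins TRAF2 at TNF receptor 2 and CD40, lies on chromosome 2 at 34941750 to 34961772, minus strand. LPS libraries held 15.0, 13.5 and 13.1 CPM in GR Zn/Zn and 8.18, 7.81 and 8.32 CPM in GR wt/wt fibroblasts. With vehicle it was low and overlapping, at 0.547, 0.761 and 0.633 CPM in GR Zn/Zn and 0.760, 0.786 and 0.868 CPM in GR wt/wt fibroblasts. The genotypes differed with LPS (0.77 ± 0.10, adjusted p = 3.85e-06) and did not pass with vehicle (-0.38 ± 0.19, adjusted p = 0.339).

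LPS raised Traf1 21.4 times in GR Zn/Zn and 10.1 times in GR wt/wt fibroblasts (log2 4.47 ± 0.14 and 3.32 ± 0.14, adjusted p = 2.03e-17 and 1.64e-14). Both SEs are smaller than counting error alone, given 62 vehicle reads in GR Zn/Zn and 55 in GR wt/wt libraries. The difference of 1.15 ± 0.22 passed (adjusted p = 0.0139). It rests on 62 and 55 vehicle reads, and was lost without any 1 of the 3 GR wt/wt vehicle libraries, without GR Zn/Zn vehicle replicate 1, and without the 3 deep libraries (1.02 ± 0.27, adjusted p = 0.163) or the 5 that stood apart (1.01 ± 0.30, adjusted p = 0.0636).

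Dex + LPS left Traf1 at 13.2, 14.9 and 13 CPM in GR Zn/Zn, overlapping LPS, and at 5.69, 4.48 and 4.15 CPM in GR wt/wt fibroblasts, below all LPS libraries. The change was -0.02 ± 0.10 in GR Zn/Zn (adjusted p = 0.997) and -0.78 ± 0.11 in GR wt/wt fibroblasts (adjusted p = 8.15e-06). The difference was 0.76 ± 0.14 (adjusted p = 0.000786). Dex alone gave 0.656, 0.675 and 0.686 CPM in GR Zn/Zn and 0.683, 0.619 and 0.513 CPM in GR wt/wt fibroblasts, where the change of -0.40 ± 0.21 did not pass (adjusted p = 0.465).

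Traf2 (ENSMUSG00000026942), the adaptor that brings cIAP proteins to TNF receptors, lies on chromosome 2 at 25517982 to 25546940, minus strand. LPS libraries held 37.5, 37.5 and 36.9 CPM in GR Zn/Zn and 33.1, 32.9 and 32.2 CPM in GR wt/wt fibroblasts, and vehicle libraries 25.9, 29.9 and 29.8 CPM in GR Zn/Zn and 25.5, 24.1 and 24.6 CPM in GR wt/wt fibroblasts. Every LPS library was above every vehicle library. LPS raised it by 0.39 ± 0.06 in GR Zn/Zn and 0.40 ± 0.06 in GR wt/wt fibroblasts (adjusted p = 1.46e-05 and 2.11e-05), with a difference of -0.01 ± 0.09 (adjusted p = 0.991).

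Traf2 was higher in GR Zn/Zn by 0.19 ± 0.06 with LPS (adjusted p = 0.0242) and by 0.20 ± 0.06 with vehicle (adjusted p = 0.0222). The call with LPS was lost without replicate 1 or 2 of GR Zn/Zn or any 1 replicate of GR wt/wt, and the call with vehicle without replicate 2 or 3 of GR Zn/Zn or replicate 2 of GR wt/wt. Dex + LPS libraries held 36.0, 37.6 and 36.8 CPM in GR Zn/Zn and 31.1, 30.4 and 27.2 CPM in GR wt/wt fibroblasts. The GR wt/wt libraries lay below all LPS libraries, but the change of -0.15 ± 0.06 missed the threshold (adjusted p = 0.0758), and that of GR Zn/Zn was -0.02 ± 0.06 (adjusted p = 0.989). With Dex alone Traf2 held 24.8, 27.0 and 26.1 CPM in GR Zn/Zn, overlapping vehicle, and 23.9, 23.2 and 22.9 CPM in GR wt/wt fibroblasts, just below vehicle, and neither change passed (-0.13 ± 0.06, adjusted p = 0.675, and -0.08 ± 0.06, adjusted p = 0.498).

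Birc3 (ENSMUSG00000032000) encodes cIAP2, a ubiquitin ligase of the receptor complex that restrains cell death, and lies on chromosome 9 at 7848699 to 7873186, minus strand. LPS libraries held 96.9, 93.8 and 98.3 CPM in GR Zn/Zn and 61.6, 62.1 and 59.8 CPM in GR wt/wt fibroblasts. Vehicle libraries held 19.2, 18.8 and 16.1 CPM in GR Zn/Zn and 14.5, 14.6 and 15.0 CPM in GR wt/wt fibroblasts. The genotypes did not overlap under either treatment, and Birc3 was higher in GR Zn/Zn by 0.66 ± 0.06 with LPS (adjusted p = 1.62e-08) and 0.30 ± 0.07 with vehicle (adjusted p = 0.00183).

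LPS raised Birc3 5.34 times in GR Zn/Zn and 4.16 times in GR wt/wt fibroblasts (log2 2.41 ± 0.06 and 2.06 ± 0.06, adjusted p = 1.26e-18 and 6.22e-17), and the difference missed the threshold in edgeR (0.35 ± 0.09, adjusted p = 0.0803) but passed it without the 5 libraries that stood apart (adjusted p = 0.00129). Dex + LPS libraries held 95.4, 88.8 and 91.9 CPM in GR Zn/Zn and 53.6, 50.6 and 58.4 CPM in GR wt/wt fibroblasts. The change was -0.07 ± 0.06 in GR Zn/Zn (adjusted p = 0.959) and -0.17 ± 0.06 in GR wt/wt fibroblasts (adjusted p = 0.0406). The difference of these changes was 0.11 ± 0.08 (adjusted p = 0.521). The GR wt/wt call was lost without any 1 of the 3 LPS libraries or without Dex + LPS replicate 1 or 2, with adjusted p up to 0.261 over all alternatives. Dex alone left Birc3 at 16.6, 17.5 and 17.2 CPM in GR Zn/Zn and 14.8, 15.3 and 14.6 CPM in GR wt/wt fibroblasts, overlapping vehicle in both (adjusted p = 0.741 and 0.923).

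Across the 9 genes, GR Zn/Zn exceeded GR wt/wt fibroblasts by the test for 3 genes with vehicle (Tnf, Traf2 and Birc3) and was below for 2 (Tnfrsf11b and Cd40), beside 18.8% of all tested genes called. With LPS it exceeded GR wt/wt for 6 (Tnf, Tnfrsf1b, Cd40, Traf1, Traf2 and Birc3) and was below for none, beside 24.5%. These comparisons share libraries with the LPS responses above. In GR Zn/Zn against GR wt/wt, 6 of 10 fibroblast markers were higher and 1 lower with vehicle, and 8 higher and 1 lower with LPS, while of 6 tested endothelial markers 2 were lower with vehicle and 3 with LPS.

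The drop under Dex in GR wt/wt fibroblasts with LPS was read again without the 5 libraries that stood apart, which leaves 1 GR wt/wt Dex + LPS library that is assumed to vary like the other groups. It was then -1.72 ± 0.09 for Tnf, -2.96 ± 0.60 for Tnfsf10 and -0.20 ± 0.06 for Tnfrsf1b. For the others it was -1.27 ± 0.08 for Tnfrsf11b, -1.21 ± 0.13 for Cd40, -0.87 ± 0.15 for Traf1 and -0.29 ± 0.06 for Birc3. All 7 kept their calls there.

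In the authors' deposited table for GR wt/wt fibroblasts, which holds 8 of the 9 genes and not Tnfsf10, the log2 change of Tnf under Dex with LPS against LPS is -1.69 and that of Cd40 is -1.15. In the authors' deposited table for GR Zn/Zn fibroblasts the same changes are 0.01 for Tnf and 0.01 for Cd40.

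The other genes of the pathway were read in 6 lists with 90 genes, of which 74 were tested. Dex under LPS raised 0 and lowered 0 of the 74 in GR Zn/Zn, and raised 5 and lowered 22 in GR wt/wt fibroblasts, beside 0.00657% of all tested genes called in GR Zn/Zn and 21.0% in GR wt/wt fibroblasts. LPS raised 38 and lowered 6 in GR Zn/Zn (36.7% of all genes called), and raised 37 and lowered 1 in GR wt/wt fibroblasts (26.4% of all genes called). With LPS, 23 were higher and 6 lower in GR Zn/Zn than in GR wt/wt fibroblasts, beside 24.5% of all genes.

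**Figure D4:**
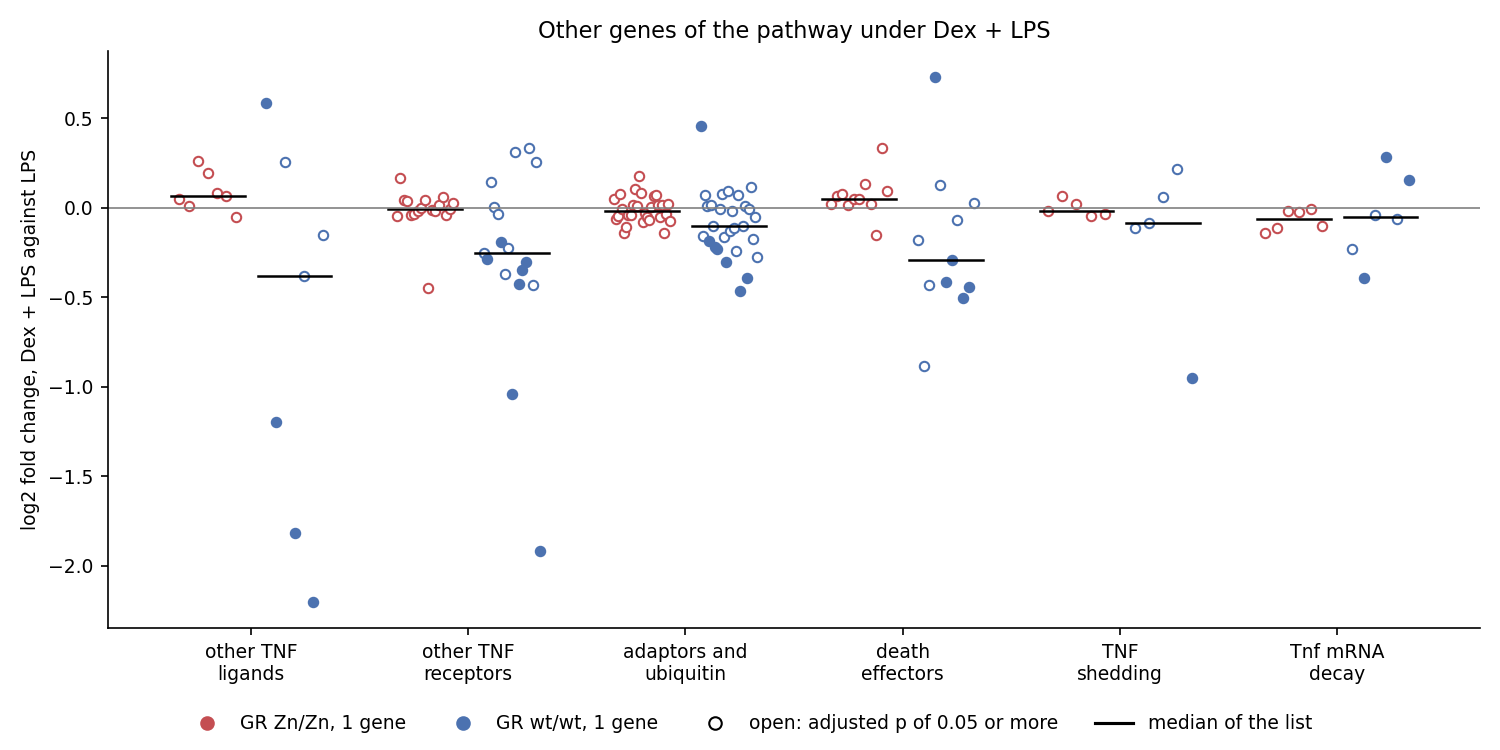
Log2 fold change of Dex + LPS against LPS (y axis) for each tested gene of 6 pathway lists (x axis), with GR Zn/Zn in red left of GR wt/wt in blue, open points for an adjusted p of 0.05 or more and a black line at the median of the list. No gene passed in GR Zn/Zn, and in GR wt/wt fibroblasts the lowest point is Tnfsf8 at -2.20 and the highest Bcl2l1 at 0.73.

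Of 16 other TNF superfamily ligands 7 were tested, and Dex under LPS moved none of them past the threshold in GR Zn/Zn (median 0.07) and lowered 3 and raised 1 in GR wt/wt fibroblasts (median -0.38), where 21.0% of all genes were called. Tnfsf11, which encodes RANKL, the ligand that osteoprotegerin blocks, stood at 21.1 CPM with Dex + LPS and 21.0 CPM with LPS in GR Zn/Zn (log2 change 0.01 ± 0.09), and at 5.14 CPM with Dex + LPS and 11.9 CPM with LPS in GR wt/wt fibroblasts (-1.20 ± 0.10, adjusted p = 2.94e-09). Tnfsf15 had a log2 change of 0.19 ± 0.22 in GR Zn/Zn and fell in GR wt/wt fibroblasts (-1.82 ± 0.22). The CD30 ligand Tnfsf8 likewise had 0.07 ± 0.23 in GR Zn/Zn and fell in GR wt/wt fibroblasts (-2.20 ± 0.26). Eda, the ligand ectodysplasin, had 0.05 ± 0.11 in GR Zn/Zn and rose by 0.59 ± 0.10 in GR wt/wt fibroblasts.

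Of 24 other receptors 17 were tested, and Dex under LPS moved none past the threshold in GR Zn/Zn (median -0.01) and lowered 7 in GR wt/wt fibroblasts (median -0.26), beside 21.0% of all genes. Fas, a death receptor, rose with LPS by 2.94 ± 0.07 in GR Zn/Zn and 2.65 ± 0.07 in GR wt/wt fibroblasts. Its change under Dex + LPS was 0.17 ± 0.06 in GR Zn/Zn (adjusted p = 0.72) and -0.29 ± 0.06 in GR wt/wt fibroblasts (adjusted p = 0.00221). Tnfrsf14, the receptor HVEM, had 0.04 ± 0.21 in GR Zn/Zn and fell in GR wt/wt fibroblasts (-1.04 ± 0.26), as did Tnfrsf21, death receptor 6, with -0.01 ± 0.08 in GR Zn/Zn and -0.43 ± 0.08 in GR wt/wt fibroblasts. Tnfrsf22, a decoy receptor, had -0.02 ± 0.07 in GR Zn/Zn and -0.35 ± 0.07 in GR wt/wt fibroblasts. Tnfrsf9, which encodes 4-1BB, averaged 0.462 CPM with Dex + LPS and 0.450 CPM with LPS in GR Zn/Zn, and 0.184 CPM with Dex + LPS and 0.716 CPM with LPS in GR wt/wt fibroblasts. Relt was lowered by LPS in GR Zn/Zn (-0.36 ± 0.12) and in GR wt/wt fibroblasts (-0.38 ± 0.12).

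Of 28 adaptors and ubiquitin enzymes, all tested, Dex under LPS moved none past the threshold in GR Zn/Zn (median -0.02) and lowered 6 and raised 1 in GR wt/wt fibroblasts (median -0.11). The 7 called of 28 stand beside 21.0% of all genes called in GR wt/wt fibroblasts. Tnfaip3, which encodes the deubiquitinase A20, rose with LPS by 4.75 ± 0.09 in GR Zn/Zn and 3.64 ± 0.08 in GR wt/wt fibroblasts. Its change under Dex + LPS was 0.06 ± 0.07 in GR Zn/Zn and -0.46 ± 0.07 in GR wt/wt fibroblasts (adjusted p = 2.79e-05). Tnip1, a partner of A20, rose with LPS by 2.36 ± 0.10 in GR Zn/Zn and 1.70 ± 0.10 in GR wt/wt fibroblasts, and did not pass under Dex + LPS (0.07 ± 0.09 in GR Zn/Zn and -0.10 ± 0.09 in GR wt/wt fibroblasts).

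Rnf31, the catalytic subunit of the linear ubiquitin ligase, had 0.18 ± 0.08 in GR Zn/Zn (adjusted p = 0.83) and fell in GR wt/wt fibroblasts (-0.30 ± 0.08). Traf3, which restrains the alternative NF-kB pathway, had -0.05 ± 0.08 in GR Zn/Zn and fell in GR wt/wt fibroblasts (-0.39 ± 0.08). The deubiquitinase gene Otud7b had -0.04 ± 0.08 in GR Zn/Zn and fell in GR wt/wt fibroblasts (-0.23 ± 0.08). Birc2, which encodes cIAP1, the close relative of the Birc3 product, had 0.05 ± 0.08 in GR Zn/Zn and rose by 0.45 ± 0.08 in GR wt/wt fibroblasts (adjusted p = 0.000153).

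Of 11 death effectors and inhibitors, all tested, 9 rose with LPS in each genotype, beside 36.7% of all genes called in GR Zn/Zn and 26.4% in GR wt/wt fibroblasts. Dex under LPS moved none past the threshold in GR Zn/Zn (median 0.05) and lowered 4 and raised 1 in GR wt/wt fibroblasts (median -0.29, with 21.0% of all genes called). Mlkl, the effector of necroptosis, had 0.33 ± 0.07 in GR Zn/Zn (adjusted p = 0.14) and fell in GR wt/wt fibroblasts (-0.44 ± 0.07, adjusted p = 8.13e-05). Cflar, the inhibitor of caspase 8, had -0.15 ± 0.12 in GR Zn/Zn and fell in GR wt/wt fibroblasts (-0.51 ± 0.12). Bcl2l1, which encodes the survival protein Bcl-xL, had 0.02 ± 0.07 in GR Zn/Zn and rose by 0.73 ± 0.07 in GR wt/wt fibroblasts. Bcl2a1a, Bcl2a1b and Bcl2a1d, all among the 9 that rose with LPS in each genotype, are near-identical copies. Their reads may be lost or given to the wrong copy, so their levels with LPS (0.864, 0.952 and 2.90 CPM in GR Zn/Zn and 0.466, 0.674 and 1.84 CPM in GR wt/wt fibroblasts) are uncertain.

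Of the 5 genes of TNF shedding, none passed under Dex + LPS in GR Zn/Zn (median -0.02) and 1 fell in GR wt/wt fibroblasts (median -0.09), a share near the 21.0% of all genes called there. It was Timp3, an inhibitor of the TNF-shedding protease, with -0.04 ± 0.07 in GR Zn/Zn and -0.95 ± 0.07 in GR wt/wt fibroblasts (adjusted p = 3.36e-10). The protease gene Adam17 had 0.07 ± 0.06 in GR Zn/Zn and -0.09 ± 0.06 in GR wt/wt fibroblasts, and did not pass. Nor did Rhbdf2 (-0.05 ± 0.10 in GR Zn/Zn and 0.21 ± 0.10 in GR wt/wt fibroblasts) and Rhbdf1 (0.02 ± 0.12 in GR Zn/Zn and 0.06 ± 0.12 in GR wt/wt fibroblasts), which encode partners of the protease.

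Of the 6 genes of Tnf mRNA decay, none passed under Dex + LPS in GR Zn/Zn (median -0.07), and 2 rose and 1 fell in GR wt/wt fibroblasts (median -0.05), set against 21.0% of all genes called. Zfp36 encodes tristetraprolin, a protein that speeds the decay of Tnf mRNA. It had -0.03 ± 0.06 in GR Zn/Zn and rose by 0.28 ± 0.06 in GR wt/wt fibroblasts (adjusted p = 0.00214). Its relative Zfp36l2 had -0.11 ± 0.05 in GR Zn/Zn and rose by 0.15 ± 0.05 in GR wt/wt fibroblasts, and Rc3h2, which encodes roquin 2, had -0.12 ± 0.12 in GR Zn/Zn and fell in GR wt/wt fibroblasts (-0.39 ± 0.12). Zfp36l1 had -0.01 ± 0.05 in GR Zn/Zn and -0.06 ± 0.05 in GR wt/wt fibroblasts, and Zc3h12a, which encodes the nuclease Regnase-1, had -0.02 ± 0.10 in GR Zn/Zn and -0.04 ± 0.10 in GR wt/wt fibroblasts. Neither passed.

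For each of the 9 genes, the 3 tested genes most like it were taken by Pearson's r over the 8 group means of log2 CPM, which share libraries and treatments, so that a high r is common and is a description only. They were Igfbp3 (0.999), Cxcl16 (0.998) and Nlrp3 (0.998) for Tnf, and Gm4841 (0.999), Gbp4 (0.999) and Irgm2 (0.999) for Tnfsf10. For the receptors they were Ddrgk1, Ankrd54 and Mindy1 for Tnfrsf1a (0.974 to 0.976), Stx11, Tnip1 and Il27 for Tnfrsf1b (0.996 to 0.997), Dgkd, 2010300F17Rik and Hoxb2 for Tnfrsf11b (0.958 to 0.970), and Mmp10, Fam49a and Rae1 for Cd40 (0.995 to 0.997). For the adaptors they were Cd69, Cxcl10 and Il27 for Traf1 (0.996 to 0.998), Il15ra, Ppp1r15b and Snhg17 for Traf2 (0.994 to 0.995), and Nfkb2, Csf1 and Rffl for Birc3 (0.996 to 0.997). No member was among another member's 3. Tnfsf10 had 0 to 2 reads in each group without LPS, so that part of its profile is set mostly by the prior count. Gm4841 and Gbp4 were low as well, with mean log2 CPM of -0.92 and -1.11.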

How the data were processed

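Per the labels' protocols, polyA RNA was made into TruSeq Stranded libraries from 500 ng of input. Per the submitters' processing notes, reads were mapped to mm10 with STAR 2.4.2a, and FastQC and DESeq2 were used. The authors deposited STAR counts per gene, from which the column of the transcript strand was taken; the other strand held 2.70 to 2.91% of the reads, and lines that name no gene held 12.4 to 15.7%. The authors' deposited comparison tables give log2 fold changes and adjusted p-values for 12588 genes. The 96 columns with a value for each sample in those tables were left out.

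edgeR 4.0.16 (R 4.3.3) was fitted once across all 24 libraries, with filterByExpr, TMM scaling, a robust quasi-likelihood fit and Benjamini-Hochberg adjustment over all 15221 genes tested, for each of 12 comparisons. Levels are CPM on TMM library sizes, fold changes use a prior count of 0.125, log2 CPM a prior of 2, and intervals are 95% intervals. Each SE was computed back from the log2 change and the F statistic of its test, and the intervals were built from that SE. Where a group has few reads, an SE and the interval built from it may be narrower than counting error alone. The 9 genes, the 6 pathway lists and the marker lists were chosen with earlier results of these data known. Of each pathway list the text names up to 3 genes in each direction by the size of the called LPS change in GR wt/wt fibroblasts, then up to 2 in each direction among those called for Dex under LPS there. DESeq2 1.42.0 was an alternative. The scripts were tested on simulated data. The counting interval and the floor of 3 reads cover counting error only, since the reads carry no molecular identifiers.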

Additional observations from a re-analysis of the deposited data

Results flagged for a closer look

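The test of the difference between the genotypes, GR Zn/Zn minus GR wt/wt fibroblasts in edgeR, called 11 responses among the 9 genes, all positive. For Dex under LPS they were Tnfsf10 (log2 difference 3.19 ± 0.52, adjusted p = 0.000296), Tnf (1.69 ± 0.12, adjusted p = 5.44e-10), Tnfrsf11b (1.25 ± 0.10, adjusted p = 4.96e-09), Cd40 (1.15 ± 0.14, adjusted p = 2.22e-06), Traf1 (0.76 ± 0.14, adjusted p = 0.000786) and Tnfrsf1b (0.30 ± 0.08, adjusted p = 0.0127). For Dex alone they were Tnfrsf11b (1.25 ± 0.10, adjusted p = 8.68e-09) and Cd40 (1.07 ± 0.21, adjusted p = 0.00152). For LPS they were Cd40 (1.15 ± 0.17, adjusted p = 0.00125), Traf1 (1.15 ± 0.22, adjusted p = 0.0139) and Tnfrsf11b (0.56 ± 0.10, adjusted p = 0.00932), the last with a rise in GR Zn/Zn and a fall in GR wt/wt fibroblasts. All 9 genes were tested in each comparison. Of all tested genes, 10.4% were called for Dex under LPS, 6.99% for Dex alone and 0.539% for LPS. These tests share their LPS or vehicle libraries.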

How the results depend on the processing

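The 9 genes gave 100 fold changes with enough reads, each refitted under 34 alternatives, of which 24 leave out 1 library each. Of 3399 refitted values 3326 kept their side of the threshold, 32 lost a call, 41 gained one, and no called change turned its sign (45 uncalled values did). Of 46 called changes 39 kept their call under every alternative. The other 7 were Tnfrsf1a for Dex, Tnfrsf1b and Birc3 for Dex under LPS (all in GR wt/wt), Tnfrsf11b for LPS in GR Zn/Zn, Traf2 between the genotypes with LPS and with vehicle, and Traf1 for the difference of the LPS response. The 41 gained calls were those of Tnfrsf1a for LPS and for Dex under LPS in GR wt/wt and between the genotypes with LPS and with vehicle, Traf2 for Dex under LPS in GR wt/wt, Tnfrsf1b and Birc3 for the difference of the LPS response and for the Dex response of GR wt/wt with against without LPS, and Birc3 for the genotype difference of Dex under LPS.

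The number of the 9 genes called stayed within 1.5 times for all comparisons but 2. For the genotype difference of the LPS response, leaving out 1 library gave 2 to 5 genes, with 5 without replicate 3 of GR wt/wt with Dex + LPS. For the Dex response of GR wt/wt fibroblasts with LPS against that without, it gave 0 to 1, and the number was 1 with DESeq2 and 2 without the 5 libraries that stood apart. The cause was not tested.

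Counts over all genes moved by over 1.5 times in 10 comparisons. Fitting only the groups compared gave 6847 genes for LPS (beside 4020), 4659 for Dex (beside 2003) and 1544 for Dex under LPS (beside 3198) in GR wt/wt fibroblasts, and for the genotype differences 146 for LPS (beside 82), 1659 for Dex (beside 1064) and 1042 for Dex under LPS (beside 1581). Leaving out the 5 libraries gave 6676 for LPS and 4330 for Dex in GR wt/wt fibroblasts, and genotype differences of 405 for LPS, 2191 for Dex and 2970 for Dex under LPS. Leaving out only the 3 deep ones gave 5052 for Dex under LPS in GR wt/wt fibroblasts. Genotype with vehicle gave 4620 without the 5 (beside 2861), and the Dex response with against without LPS 781 (387 without the 3 deep ones, beside 238). In GR Zn/Zn the count ranged over all alternatives from 0 to 5 for Dex (beside 0) and from 0 to 160 for Dex under LPS (beside 1). DESeq2 gave 140 for the genotype difference of the LPS response, and leaving out 1 library 34 to 121. Scaling by library totals moved the median gene by -0.12 for LPS in GR Zn/Zn, where the Tnfrsf11b call was lost.

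Same-numbered libraries did not consistently deviate together (correlations of -0.34 to 0.35, and the best match had the same number in 18 of 48 checks). This cannot decide whether replicate numbers pair them, since each deviation is from a mean of 3 libraries and the labels name no embryos. A fit with a replicate block changed 1 call of the 9 genes, Birc3 for Dex under LPS in GR wt/wt fibroblasts (adjusted p = 0.0537), and gave 12 genes for Dex under LPS in GR Zn/Zn over all genes. Depth limits Tnf without LPS (8 to 64 reads a group) and Tnfsf10 without LPS (0 to 2 reads).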
